A study of Mus musculus with 16 samples.

Results

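The early response of cultured adult mouse neural stem cells to activation of CreER, a recombinase that can delete a floxed Tlx allele, was measured on the 4 arrays, of 16 in the series, that compare 4-hydroxytamoxifen (4OHT) with vehicle in CreER cultures at 36 h. Members were chosen by title: the 2 arrays titled Tlx(f/Z;CreER)+4OH-TM36h and the 2 titled Tlx(f/Z;CreER)+vehicle36h. Every culture of the series carried Tlx(f/Z), where f commonly stands for an allele flanked by recombinase sites; what Z stands for is not given in the sources used here. The vehicle cultures carried CreER as well, so the groups compared differ in 4OHT and in what it sets off. For background, 2 vehicle and 2 4OHT arrays of Tlx(f/Z) cultures without Cre at 36 h were used, and for the later course the 4 matching CreER arrays at 60 h. The sources used here do not give the age of the animals, the promoter that drives CreER, or whether a culture was 1 line or a pool. The submitters describe replicates as biological but name no separate animals. The p-values therefore measure only the spread between replicate arrays of the series, which may be technical. As deposited, that spread was taken from genes of like brightness over all 16 arrays.

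Tlx, the product of Nr2e1, is an orphan nuclear receptor that acts mainly as a transcriptional repressor, recruiting histone deacetylases and demethylases to target genes. In the adult forebrain it is made by neural stem cells and is known for keeping them dividing and undifferentiated. CreER is a Cre recombinase fused to a mutated hormone-binding domain of the estrogen receptor. It enters the nucleus when 4OHT binds, and a deleted gene's messenger RNA and protein then decline over time.

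Replicate arrays correlated across probe sets at r = 0.9902 (vehicle) and 0.99 (4OHT), against 0.9857 to 0.9869 between treatments. Median signal was 97.85 and 113.6 on the vehicle arrays and 106.3 and 108.8 on the 4OHT arrays, and the median log2 change of all genes was −0.03. For the actin controls, 5′ signal over 3′ signal, which falls as RNA degrades, was 0.773 and 0.716 on vehicle arrays and 0.825 and 0.789 on 4OHT arrays; its part in the results was not tested. Nr2e1 itself was not analysed here, since 0 probe sets were listed under its symbol, so the targeted gene gave no check of the labels. All 8 stem and progenitor markers passed the filter on low signal, among them Nes, Sox2 and Fabp7, and Olig1 (6910 to 7415) and Olig2 (2972 to 3704) were bright on all 4 arrays. Summed over their markers, microglia gave 75 to 124, endothelial and mural cells 46.5 to 73.6, fibroblasts 69.2 to 88.3 and ependymal cells 30.1 to 77.2, against 17660 to 20360 for the stem markers. Of 6 neuronal markers 2 passed the filter, Map2 (1200 to 1697) and Syp, and Tubb3, Dcx, Stmn2 and Snap25 did not; their sum was 1573 and 1815 with vehicle and 1322 and 1397 with 4OHT. Of 5 astrocyte markers S100b and Aldh1l1 passed and Gfap, Aqp4 and Slc1a2 did not. Their sum was 412.1 and 490.1 with vehicle and 544.3 and 617.8 with 4OHT. Only S100b was above both vehicle arrays on both 4OHT arrays (173.6 and 209.4 against 312.6 and 344.5). Aldh1l1 and Aqp4 overlapped, and Gfap and Slc1a2 were lower with 4OHT. The part of these markers in the results was not tested. In bulk RNA, fewer cells of a kind and less RNA per cell cannot be told apart.

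At 36 h, 199 of 7619 genes tested (2.61%) passed an adjusted p of 0.05 in limma, 85 higher (1.12%) and 114 lower (1.5%). The 114 that fell included many genes of the dividing cell: 46 of them (40.4%) belonged to 5 lists of DNA replication, G1/S, fork checkpoint, G2/M and mitosis genes, or 28.4% of the 162 genes tested in those lists, of which 0 rose. The 85 that rose included p53-linked arrest genes, targets of the stress factor ATF4, glutathione and heme enzymes, and the Krüppel-like factors Klf2 and Klf4. Most changes were modest: the median of the genes that fell was −0.71 and that of the genes that rose 0.77, in log2(signal + 16), a scale that understates the change of dim genes. With arrays quantile-normalized, 1632 genes passed (21.4%), 739 higher (9.7%) and 893 lower (11.7%), and these held 192 of the 199, 81 higher (1.06% of genes tested) and 111 lower (1.46%). Counts of list members after quantile normalization are read against the 9.7% and 11.7%. With arrays scaled to 1 median, 361 rose and 1103 fell. Without the filter on low signal, 14 of 12393 genes passed as deposited, 13 of them among the 199. Leaving out any 1 array cut the count of 199: 58 without vehicle replicate 1, 78 without vehicle replicate 2, 31 without 4OHT replicate 1 and 38 without 4OHT replicate 2. The direction split moved with it, from 65 higher and 13 lower without vehicle replicate 2 to 16 higher and 42 lower without vehicle replicate 1.

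Promoters of cell cycle genes that fell together are shown first, because such genes are known to share short promoter elements. Slc7a11, a gene linked to the stress factor ATF4, rose and is shown with them. The CHR element binds the complexes that silence mitotic genes in resting cells, and E2F sites do so for replication genes. The CARE element is bound by ATF4 at amino acid and stress genes. Sequences are those of RefSeq on GRCm38.p6, 200 bases directly upstream of the start site, written 5′ to 3′ on the gene's strand, with the motif in capitals. Within each set of lists, they are the members past the threshold with the smallest p that have 1 listed promoter with the motif in that stretch, at most 2 a motif. Top2a (DNA topoisomerase II alpha, chr11:99024190-99024389, minus strand) and Mki67 (the proliferation marker Ki-67, chr7:135716380-135716579, minus strand) hold the CHR element. Pola1 (catalytic subunit of the polymerase that primes replication, chrX:93632156-93632355, minus strand) holds an E2F site, and Slc7a11 (the cystine transporter, chr3:50443614-50443813, minus strand) the CARE element.
Top2a: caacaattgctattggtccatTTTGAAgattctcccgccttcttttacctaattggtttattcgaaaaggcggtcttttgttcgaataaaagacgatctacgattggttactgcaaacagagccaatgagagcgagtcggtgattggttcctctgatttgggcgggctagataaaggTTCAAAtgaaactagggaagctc
Mki67: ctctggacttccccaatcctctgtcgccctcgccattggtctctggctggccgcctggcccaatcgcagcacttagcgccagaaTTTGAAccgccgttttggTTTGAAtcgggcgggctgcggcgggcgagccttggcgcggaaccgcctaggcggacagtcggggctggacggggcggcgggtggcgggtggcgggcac
Pola1: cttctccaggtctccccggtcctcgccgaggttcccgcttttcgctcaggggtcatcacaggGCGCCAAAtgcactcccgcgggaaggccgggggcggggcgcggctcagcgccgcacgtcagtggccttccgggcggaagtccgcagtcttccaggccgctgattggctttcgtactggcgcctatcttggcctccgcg
Slc7a11: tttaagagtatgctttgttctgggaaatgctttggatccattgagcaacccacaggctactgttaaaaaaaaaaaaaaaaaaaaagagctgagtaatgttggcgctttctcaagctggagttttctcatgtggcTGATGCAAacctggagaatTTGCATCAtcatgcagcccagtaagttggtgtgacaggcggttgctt

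Over 300 bases around the start site (250 before, 50 after), both strands were searched for TTTGAA (CHR), TTTCCCGC or TTTGGCGC (E2F) and TGATGNAA (CARE). Each motif was searched on its own, so a base could count for more than 1 motif. Of 7619 genes tested, 6269 had a promoter in the table. The CHR letters stood in 23 of 35 promoters of the kinetochore and spindle list (65.7%) and 16 of 23 of the G2/M list (69.6%), against 13.6% of the genes tested and 17.9% of all 32851 promoters. The E2F letters stood in 11 of 32 replication promoters (34.4%, against 4.05% of genes tested and 1.56% of all promoters). The CARE letters stood in 11 of 29 promoters of the ATF4 list (37.9%, against 2.57% of genes tested and 3.97% of all promoters). These shares describe the lists, not the response. Among members past the threshold, the CHR letters were present in 8 of 15 kinetochore and 5 of 5 G2/M promoters, the E2F letters in 1 of 6 replication promoters, and the CARE letters in 2 of 6 ATF4-list promoters (Slc7a11 and Trib3). Over all genes that fell, 26.7% held the CHR letters and 11.1% the E2F letters; of those that rose, 10.9% and 0%. A match is a description of letters and not a site in use.

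All 39 tested members of the replication list, which holds the MCM helicase, its loaders, the polymerases and the flap and ligase enzymes, had a log2 change below 0, with a median of −0.44 against −0.03 for all genes. Of the 39, 7 fell (limma adjusted p under 0.05), 0 rose and 32 did not pass. On 36 of the 39 both 4OHT arrays lay below both vehicle arrays, which was so for 27.6% of all genes tested. Pola1 read 499.1 and 550.9 with vehicle and 273.8 and 269.3 with 4OHT. The 4OHT arrays sat close together, below either vehicle array, and the log2 change was −0.91 ± 0.19 (SE, n = 2 against 2, limma adjusted p = 5.53e-04).

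Fen1, the endonuclease that trims Okazaki flaps, went from 1874 and 2357 to 1322 and 1234 (log2 change −0.71, limma adjusted p = 0.00513). Lig1, which seals them, read 1326 and 1635 against 952.6 and 966.3 (−0.61, limma adjusted p = 0.0368). These are the enzymes of the lagging strand, as is Pola1. The helicase subunit Mcm2 (−0.57), the replication factor Mcm10 (−0.61), the leading-strand polymerase Pole (−0.63) and the clamp loader Rfc1 (−0.63) also fell. Of 24 tested G1/S and nucleotide genes 4 fell and 0 rose, with a median of −0.26: Ccne2 and Ccna2, cyclins of S-phase entry and S phase, E2f8, a repressing E2F factor, and Rbl1, the pocket protein p107. Ccne2 read 132 and 173.5 with vehicle and 73.3 and 92.8 with 4OHT (−0.77, limma adjusted p = 0.0207). After quantile normalization 31 of the 39 replication genes and 11 of the 24 G1/S genes fell, and 1 G1/S gene rose. Leaving out any 1 of the 4 arrays as deposited left 1 to 3 and 0 to 1 members lower; after quantile normalization 26 to 30 and 6 to 11 stayed past the threshold.

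Genes that guard replication forks and repair breaks had a median of −0.54 over 32 tested members, of which 12 fell and 0 rose. Chek1, the kinase that halts the cycle at stalled forks, read 215.5 and 291.4 with vehicle and 128.4 and 126.2 with 4OHT. Its log2 change was −0.90 ± 0.20 (SE, limma adjusted p = 0.0027), and a second Chek1 probe set past the filter gave −0.54. With all Chek1 probe sets averaged, including those below the filter, the change was −0.19 and did not pass (limma adjusted p = 0.816). Fancm, a Fanconi anaemia translocase, read 102.7 and 109.3 against 46.4 and 46.2, the largest fall of any named gene (−0.97 ± 0.23 SE, limma adjusted p = 0.00327). At 60 h Fancm stood at 0.20 relative to its own vehicle, unlike the other members of the list that fell, which were all below 0 then.

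Timeless (−0.81), part of the fork protection complex, Blm (−0.80), a helicase of homologous recombination, Brca1 (−0.81) and Brca2 (−0.72) fell too. So did Atr (−0.69), the kinase upstream of Chek1, and Nbn (−0.70), Fignl1, Fanci, Rad51ap1 and Rad54l (−0.66 to −0.68). Blm read 337.4 and 373.1 with vehicle against 193 and 200.2 with 4OHT. After quantile normalization 28 of the 32 fell; 18 to 20 did so with any 1 array left out, against 0 to 5 as deposited.

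The kinetochore and spindle list held the most calls: 17 of 39 tested members fell, 0 rose, and all 39 changes lay below 0, with a median of −0.58. Ttk, the kinase of the spindle checkpoint, read 426.7 and 381.2 with vehicle and 201.9 and 222.5 with 4OHT (−0.88 ± 0.19 SE, limma adjusted p = 0.00106). Cenpf, a kinetochore protein that peaks in G2 and mitosis, read 868.4 and 912.1 against 465.4 and 494.8 (−0.87, limma adjusted p = 0.00113). In both genes each vehicle array was well above each 4OHT array.

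Cenpe, the kinetochore motor, fell from 120.7 and 150.2 to 72.5 and 58.4 (−0.89, limma adjusted p = 0.0115). Bub1, Kif11 and Cenpk (−0.80 each), Aspm and Ndc80 (−0.77 each), Hmmr (−0.76) and Nusap1 (−0.72) fell in the same range; these serve the checkpoint, the bipolar spindle and the attachment of chromosomes. Incenp, Kif18a, Nuf2, Spc25, Tpx2, Anln and Cenph made up the rest of the 17, at −0.60 to −0.70. Kif18a did not pass after quantile normalization (limma adjusted p = 0.101), where 34 of the 39 fell. With any 1 array left out, 1 to 8 fell as deposited and 27 to 31 after quantile normalization.

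In the G2/M and chromosome list, 6 of 28 tested members fell and 0 rose, with a median of −0.40 and all 28 below 0. Top2a, whose promoter is printed above, read 2552 and 2877 with vehicle and 1502 and 1589 with 4OHT (−0.80 ± 0.17 SE, limma adjusted p = 5.53e-04). Mki67 read 2282 and 2573 against 1318 and 1455 (−0.80, limma adjusted p = 9.39e-04). Both are bright, and in each the dimmer vehicle array exceeded the brighter 4OHT array. The other 4 were the condensin subunits Smc2 (−0.79), Smc4 (−0.80), Ncapg (−0.82) and Ncapg2 (−0.66), which compact chromosomes. After quantile normalization 23 of the 28 fell; any 1 array left out gave 0 to 5 as deposited and 17 to 19 after quantile normalization.

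**Figure D1:**
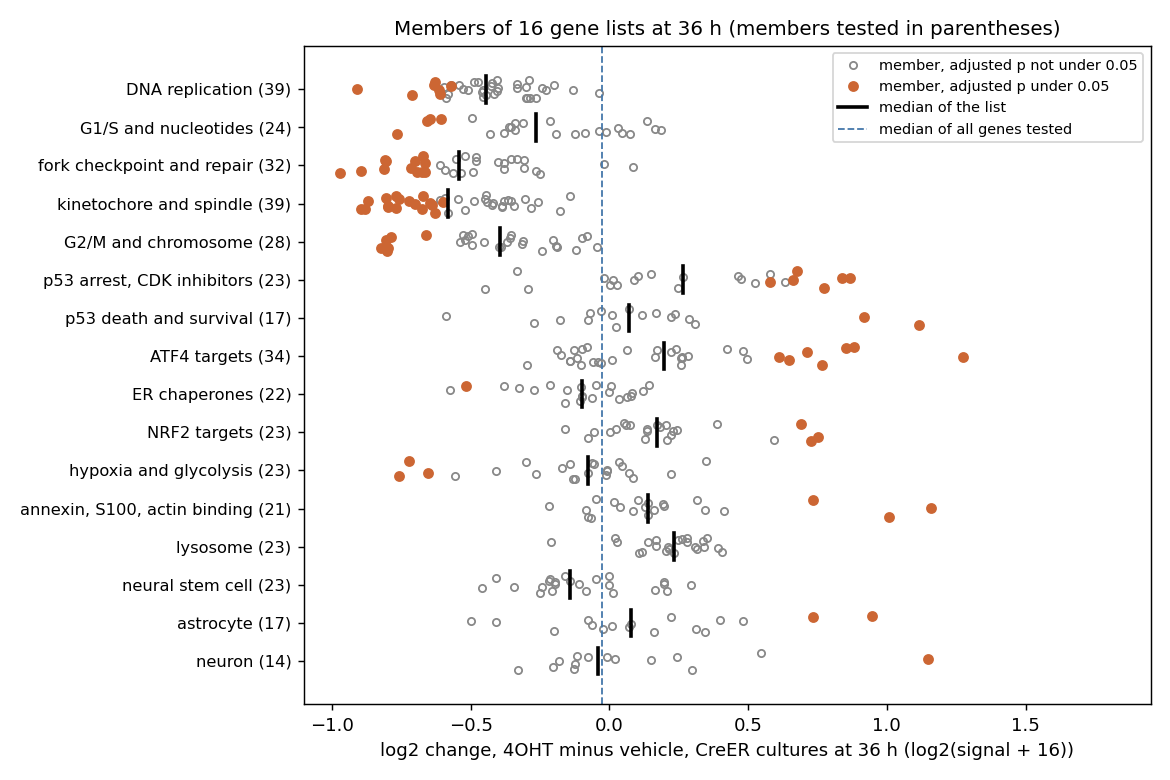
Log2 change at 36 h in CreER cultures (horizontal axis, log2(signal + 16), 4OHT minus vehicle, 2 arrays each) of each tested member of 16 gene lists; filled points passed an adjusted p of 0.05, black bars are list medians and the dashed line is the median of all genes. The 5 cell cycle lists have medians from −0.26 to −0.58 and no filled point above 0, while the filled points of the p53, ATF4 and NRF2 lists all lie above 0.

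Of 23 tested p53-linked arrest genes and CDK inhibitors, 6 rose and 0 fell, with a median of 0.27. Cdkn1a, the CDK inhibitor p21 and a gene reported in earlier work to be held down by TLX, read 1441 and 1594 with vehicle and 2574 and 2876 with 4OHT. Its log2 change was 0.84 ± 0.17 (SE, limma adjusted p = 2.31e-04), and its other probe set gave 1.25. Gadd45g, a growth arrest and damage-inducible gene, read 62.4 and 63.7 against 123.1 and 133.6 (0.87, limma adjusted p = 0.00287).

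Trp53inp1 (0.77), Zmat3 (0.68), Ccng1 (0.66) and the antiproliferative gene Btg1 (0.58) also rose; the first 3 are known p53 targets. Mdm2, the p53 ligase and another target, stood at 0.09 and did not pass. In the list of p53 death and survival genes 2 of 17 rose and 0 fell, with a median of 0.07. Bbc3, the BH3-only protein PUMA, read 67.4 and 97.4 with vehicle and 215 and 176.2 with 4OHT (1.12 ± 0.21 SE, limma adjusted p = 1.21e-04). Phlda3, an inhibitor of Akt signalling, read 400.2 and 593 against 929.5 and 940.2 (0.92, limma adjusted p = 3.99e-04). After quantile normalization 12 of the 23 arrest genes rose and 3 fell, and 5 of the 17 death genes rose; as deposited, any 1 array left out gave 0 to 6 and 0 to 2 risers.

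Of 34 tested genes linked to ATF4, the factor of the integrated stress response, 7 rose and 0 fell, with a median of 0.20. Trib3, a pseudokinase that feeds back on ATF4, read 136.5 and 125.9 with vehicle and 308.3 and 375.1 with 4OHT (1.28 ± 0.22 SE, limma adjusted p = 6.42e-06). Its second probe set gave 0.74. Slc7a11, whose promoter is printed above, read 55.8 and 106.7 against 152.3 and 161.5 (0.88, limma adjusted p = 0.0205); its vehicle arrays differed from each other more than its 4OHT arrays did.

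Cth, which makes cysteine, rose by 0.85, Ddit3, the factor CHOP, by 0.77, Cebpb by 0.71, Atf5 by 0.65 and Ddit4, an inhibitor of mTORC1, by 0.61. The amino acid enzymes Asns (0.26), Psph (0.28) and Pck2 (0.26) did not pass as deposited. Chaperones of the endoplasmic reticulum are targets of the parallel unfolded protein branches. Of 22 tested 0 rose and 1 fell, against 1.12% and 1.5% of all genes, and the difference from the ATF4 list was not tested. The 1 was Hspa5, the chaperone BiP, from 4467 and 4264 to 2895 and 3209 (−0.52, limma adjusted p = 0.0208), with −0.19 for its other probe set. After quantile normalization 16 of the 34 ATF4 genes rose and 0 fell, and 0 chaperones rose and 3 of 22 fell, where 11.7% of all genes fell. As deposited, any 1 array left out gave 1 to 5 ATF4 risers; after quantile normalization, 12 to 15.

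The transcription factor NRF2 drives glutathione and heme enzymes, and of 23 tested members of its list 3 rose and 0 fell, with a median of 0.17. Gstp1, a glutathione transferase, read 3487 and 4091 with vehicle and 6083 and 6440 with 4OHT (0.73 ± 0.14 SE, limma adjusted p = 2.11e-04). Gstm1, another transferase, read 1941 and 2220 against 3340 and 3386 (0.69, limma adjusted p = 0.00326). Hmox1, the heme oxygenase, read 262.9 and 288.3 against 465.9 and 483.1 (0.75, limma adjusted p = 0.00854). In these 3 the arrays of a group lay close together and the groups did not overlap. After quantile normalization 9 of the 23 rose and 0 fell; as deposited, any 1 array left out gave 0 to 3 risers.

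Of the hypoxia and glycolysis list 3 of 23 fell and 0 rose: Bnip3, a mitophagy receptor, Egln3, an oxygen-sensing hydroxylase, and Pdk1, which limits pyruvate entry into mitochondria. Bnip3 read 1120 and 757 with vehicle and 525.5 and 580.2 with 4OHT (−0.72, limma adjusted p = 0.0115). Its first vehicle array was the highest, as it was for Egln3 (288.6 and 220 against 131.1 and 155) and Pdk1 (643.7 and 491.4 against 321.2 and 385.7). After quantile normalization 3 of the 23 fell and 2 rose, near the shares of all genes that fell (11.7%) and rose (9.7%) there. Any 1 array left out gave 0 to 3 members lower as deposited and 0 to 7 after quantile normalization.

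The largest rise of all was that of Klf2, a Krüppel-like factor linked to quiescence in other cell types. It read 95.2 and 103.3 with vehicle and 334.9 and 337.3 with 4OHT, and the arrays of a group hardly differed. The log2 change was 1.61 ± 0.19 (SE, limma adjusted p = 7.21e-13), 3.39-fold in linear signal. Klf4, a family member known to activate Cdkn1a, read 116.9 and 173.1 against 237.6 and 235.7 (0.67, limma adjusted p = 0.0257). Of 14 tested Krüppel-like and Foxo genes these 2 rose and 0 fell. After quantile normalization 3 rose and 3 fell, where 9.7% of all genes rose and 11.7% fell. Foxo3, which is needed for stem cell quiescence, stood at 0.44 and did not pass (limma adjusted p = 0.244; 1.81e-04 after quantile normalization).

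Dcxr, a carbonyl reductase, read 172.6 and 245.2 with vehicle and 523 and 545.5 with 4OHT (1.31 ± 0.19 SE, limma adjusted p = 1.89e-08). Anxa1, an annexin, read 31 and 45.6 against 95.2 and 113.4 (1.16, limma adjusted p = 6.01e-05). Ptp4a3, a phosphatase, read 716.8 and 934.2 against 1652 and 1677 (1.01, limma adjusted p = 3.61e-06). Dcxr, Anxa1, Ptp4a3, Klf2, Trib3 and Mapt, with Myef2 and Pola1 among the falls, passed the threshold with each of the 4 arrays left out in turn.

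Gsn, the actin-severing protein gelsolin, read 146.9 and 224.5 with vehicle and 340.7 and 426.9 with 4OHT (1.01, limma adjusted p = 9.68e-05). Averaged over all its probe sets Gsn did not pass (0.58, limma adjusted p = 0.0858). Pygm, muscle glycogen phosphorylase, read 257.7 and 384.8 against 669.1 and 626.8 (2.02-fold in linear signal, limma adjusted p = 9.68e-05). Prkch, a protein kinase C isoform, read 62.9 and 121.4 against 213.1 and 208.1 (1.12, limma adjusted p = 1.11e-05). For these 3 the second vehicle array was the brighter of its pair, as it was in overall signal. Fcgrt, a receptor for immunoglobulin G and albumin (1.04), and Il17d, a cytokine of the interleukin 17 family (1.02), complete the 12 largest rises. In the list of annexins, S100 and actin-binding proteins 3 of 21 rose (Anxa1, Gsn and S100b) and 0 fell.

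Among the largest falls outside the cell cycle was Myef2, a repressor of the myelin basic protein gene. It read 757.5 and 807.1 with vehicle and 408 and 378.5 with 4OHT (−0.96 ± 0.19 SE, limma adjusted p = 1.77e-04), with −0.43 for its other probe set. Plagl1, a zinc finger factor encoded by an imprinted gene, read 185.8 and 217.4 against 102.2 and 105.4 (−0.86, limma adjusted p = 0.00287). Averaged over its probe sets it did not pass (−0.50, limma adjusted p = 0.204). The other 4 were dim with 4OHT, at signals of 17.6 to 54.4: Adamts5, a matrix protease (−0.96; −0.26 for its other probe set, and −0.61 with limma adjusted p = 0.0682 for their mean), Fam126b (−0.95), Tead1, a Hippo pathway factor (−0.84), and the centriolar gene Cntrl (−0.83). With 1 array left out in turn, Fancm, Fam126b, Chek1, Cenpe and Plagl1 passed in 1 of 4 fits, Bbc3, Il17d, Gsn, Adamts5 and Ttk in 2, and Prkch, Fcgrt, Pygm and Cenpf in 3. Tead1 and Cntrl did not pass with any of the 4 arrays left out, or with a pseudocount of 1 (limma adjusted p = 0.0551 and 0.0541).

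**Figure D2:**
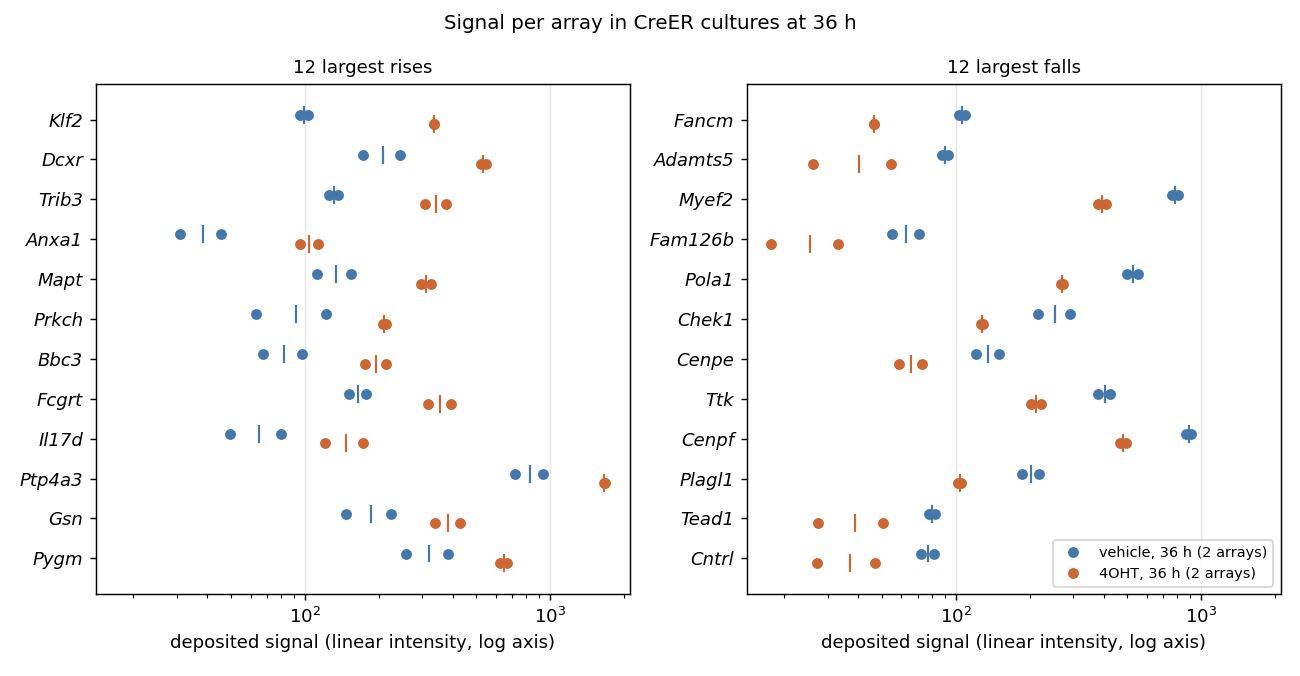
Deposited signal (horizontal log axis) on each of the 2 vehicle and 2 4OHT arrays of CreER cultures at 36 h for the 12 genes with the largest rise (left) and the 12 with the largest fall (right) among genes past the threshold as deposited and after quantile normalization; short bars are group means. In all 24 rows the groups do not overlap, which the choice of genes required; Klf2 goes from 95.2 and 103.3 to 334.9 and 337.3.

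Of 23 tested stem cell genes 0 passed as deposited, where 2.61% of all genes did; the smallest p were those of Pax6 (−0.46), Slc1a3 (−0.41) and Sox9 (−0.34), none past the threshold. After quantile normalization 3 stem cell genes rose and 3 fell, where 9.7% of all genes rose and 11.7% fell. Of 17 astrocyte genes 2 rose, Cryab, a small heat-shock protein, from 43.7 and 84.2 to 109.4 and 161 (0.95, limma adjusted p = 3.68e-04), and S100b, a calcium-binding protein, from 173.6 and 209.4 to 312.6 and 344.5 (0.74, limma adjusted p = 0.0103). After quantile normalization 6 of the 17 astrocyte genes rose and 0 fell; any 1 array left out gave 0 to 2 risers as deposited and 2 to 5 after quantile normalization. The defining astrocyte marker Gfap read 38.1 and 44.6 with vehicle and 15 and 22.9 with 4OHT, below the filter.

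Of 14 neuronal genes 1 rose, Mapt, the microtubule protein tau, from 112.5 and 154.1 to 325.8 and 298.7 (1.15, limma adjusted p = 2.26e-05), with 0.31 for its other probe set past the filter. The brightest probe sets of Tubb3, Dcx and Stmn2 read 3.36 to 25.2 on the 4 arrays; the 4 probe sets of Dcx, all below the filter, had log2 changes from −0.42 to 1.02. Of 6 oligodendrocyte lineage genes 0 passed as deposited, and Olig2 stood at 0.01. In the Notch (16 tested), Wnt (23), BMP and TGF-beta (23), sterol (25) and estrogen receptor response (13) lists 0 members passed. After quantile normalization 1 to 3 rose and 0 to 4 fell in each, where 9.7% of all genes rose and 11.7% fell. Of 17 Hippo pathway genes Tead1 fell and 0 rose (0 rose and 2 fell after quantile normalization), and of 15 heat-shock genes Cryab rose and 0 fell (1 rose and 5 fell after quantile normalization).

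Of 19 immediate early genes only Dusp1, a phosphatase that switches off MAP kinases, passed, from 471.2 and 496.6 to 866.1 and 765.3 (0.73, limma adjusted p = 0.0103). It did not pass with any 1 of the 4 arrays left out; after quantile normalization 4 of the 19 rose and 1 fell. Egr1 stood at −0.54 and Jund at 0.59, neither past the threshold as deposited. Of 17 genes of ERK feedback, Spry4, an inhibitor of receptor tyrosine kinase signalling, rose (490.4 and 446.5 against 942.3 and 811.1; 0.88, limma adjusted p = 9.39e-04). Rasa1, a Ras GTPase-activating protein, fell (588 and 563.9 against 348.4 and 356.8; −0.68, limma adjusted p = 0.0196). After quantile normalization 3 of the 17 rose and 1 fell.

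Of 12 tested genes that earlier work linked to TLX, Cdkn1a and S100b rose and 0 fell. The corepressors Hdac5 (0.43), Hdac7 (0.49), Hdac3 (−0.07), Kdm1a (−0.09) and Atn1 (−0.16) did not pass, nor did the TLX-linked Wnt7a (−0.13) and Sirt1 (−0.42). The other probe set of Hdac7, also past the filter, gave 1.12. After quantile normalization 4 of the 12 rose and 1 fell, where 9.7% of all genes rose and 11.7% fell. Hdac5 (limma adjusted p = 3.7e-04) and Hdac7 (0.0041) were among those that rose.

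The same 4OHT treatment in cultures without Cre gave far fewer calls. There, 3 genes passed (0.0394%), all lower, and 0 rose: Yipf2 (−1.01), Cox8b (−0.99) and Malat1 (−0.86). The count was 8 without no-Cre vehicle replicate 1 and 1 without no-Cre vehicle replicate 2. At an unadjusted p under 0.05, 319 genes stood apart; after quantile normalization 0 passed by limma and 494 had an unadjusted p under 0.05. The median log2 change of all genes was −0.15, so the 4OHT arrays without Cre were dimmer as a whole, and changes there are read against that value. Both of them lay below both vehicle arrays for 52.2% of genes and above both for 1.55%. The actin 5′ to 3′ ratio without Cre was 0.593 and 0.666 on vehicle arrays and 0.548 and 0.647 on 4OHT arrays. All were below the 0.716 to 0.825 of the CreER arrays at 36 h. The part of this gap in the calls without Cre, and in the differences between genotypes, was not tested. Of the 199 genes called with CreER, 0 were called in the same direction without it. With only 3 genes called without Cre, that count could not exceed 3 and says little about overlap. Cox8b was called in both, higher with CreER (0.84) and lower without Cre. Without Cre the 85 risers had a median of −0.22 and 55 lay below the median of all genes, and the 114 that fell had a median of −0.06 and 87 lay above it.

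The difference between the genotypes was itself tested, and 71 genes passed (0.932%), 69 with a higher change with CreER (0.906%) and 2, Myef2 (−0.97) and Pola1 (−0.97), with a lower one (0.0263%). The test shares its CreER arrays with the 36 h comparison. After quantile normalization, which removes the shared dimming, 1107 passed (14.5%), 511 higher (6.71%) and 596 lower (7.82%). Of the 162 cell cycle genes, 1 passed as deposited and 95 after quantile normalization, all 95 with a lower change with CreER. Pola1 without Cre read 477.8 and 537.6 with vehicle and 545 and 515.6 with 4OHT, so the fall at 36 h was seen with CreER and the values without Cre overlapped. The count as deposited ranged from 11, without no-Cre vehicle replicate 2, to 93, without CreER vehicle replicate 2. It was 13 without CreER vehicle replicate 1, 34 and 25 without CreER 4OHT replicate 1 or 2, and 44 and 31 without no-Cre 4OHT replicate 1 or 2.

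Klf2 without Cre read 243 and 214.3 with vehicle and 204.9 and 182 with 4OHT, and its change differed between genotypes by 1.84 (limma adjusted p = 1.64e-07). At 36 h its level with CreER and vehicle was thus below every array without Cre, and its level with CreER and 4OHT above them. Anxa1 was brighter without Cre (330.5 and 267.5 with vehicle, 251.2 and 209 with 4OHT) than in any CreER array at 36 h, and its change differed by 1.51 (limma adjusted p = 4.96e-04). Trib3 without Cre read 58.3 and 62.7 with vehicle and 66 and 57.5 with 4OHT, and its change differed by 1.25 (limma adjusted p = 0.00903). Cdkn1a (difference 0.99), Slc7a11 (1.29) and Gstp1 (0.88) differed as well.

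**Figure D3:**
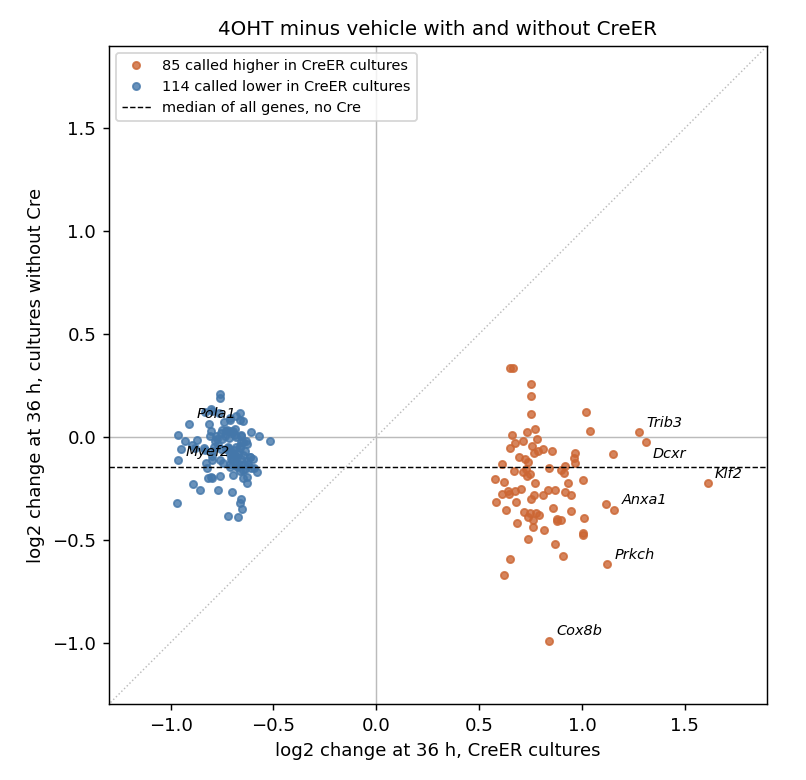
Log2 change at 36 h in CreER cultures (horizontal axis) and in cultures without Cre (vertical axis) of the 85 genes called higher and the 114 called lower with CreER; the dotted line marks equal change and the dashed line the median of all genes without Cre, −0.15. The choice of genes fixes their place along the horizontal axis; without Cre 55 of the 85 lie below the median of all genes and 87 of the 114 above it.

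At 60 h, 68 of the 85 genes that rose and 106 of the 114 that fell kept the sign of their change against the vehicle cultures of that time. With the median of all genes at −0.11 then, changes below 0 were the more common ones, so the 2 counts cannot be set against each other. The change itself differed between times for 15 genes (0.197%), 7 higher (0.0919%) and 8 lower (0.105%) at 60 h, and for 167 after quantile normalization (2.19%), 111 higher (1.46%) and 56 lower (0.735%). Without CreER 4OHT 60 h replicate 1 the count as deposited was 29, without replicate 2 of that group 6, and without CreER 4OHT 36 h replicate 1 or 2 it was 7 and 9. The median log2 change of all genes was −0.11 at 60 h against −0.03 at 36 h, and list medians are read against these; differences between list medians were not tested. The replication list stood at −0.74 at 60 h and −0.44 at 36 h, and after quantile normalization 7 of its members, Mcm4, Mcm5, Mcm7, Mcm10, Cdt1, Chaf1b and Pold1, had a lower change at 60 h. For Mcm5 the change was −0.40 at 36 h and −1.05 at 60 h. The kinetochore and spindle list stood at −0.58 and −0.66, and 0 of its members had a lower change at 60 h after quantile normalization.

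The ATF4 list had a median of 0.20 at 36 h and, at 60 h, the median of all genes, −0.11. After quantile normalization 5 of its 34 members, Trib3, Atf5, Asns, Phgdh and Shmt2, had a lower change at 60 h and 0 a higher one; as deposited 0 passed. Trib3 read 133.2 and 98.3 with vehicle and 130.9 and 165.1 with 4OHT at 60 h, where the arrays overlapped, and its change differed between times by −0.84 after quantile normalization (limma adjusted p = 0.0452). Atf5 read 1202 and 923.1 against 908.4 and 1005 at 60 h, and differed by −0.71 (limma adjusted p = 0.00352).

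The p53 arrest list had a median of 0.27 at 36 h and 0.44 at 60 h. As deposited 0 of its 23 members differed between times; after quantile normalization Trp53inp1, Ccng1 and Mdm2 had a higher change at 60 h. Cryab differed between times as deposited: 0.95 at 36 h and 2.40 at 60 h, when it read 69.9 and 27.8 with vehicle and 265.1 and 358.3 with 4OHT (difference 1.46). Spry4 turned from 0.88 at 36 h to −0.40 at 60 h (difference −1.28, limma adjusted p = 0.00243).

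**Figure D4:**
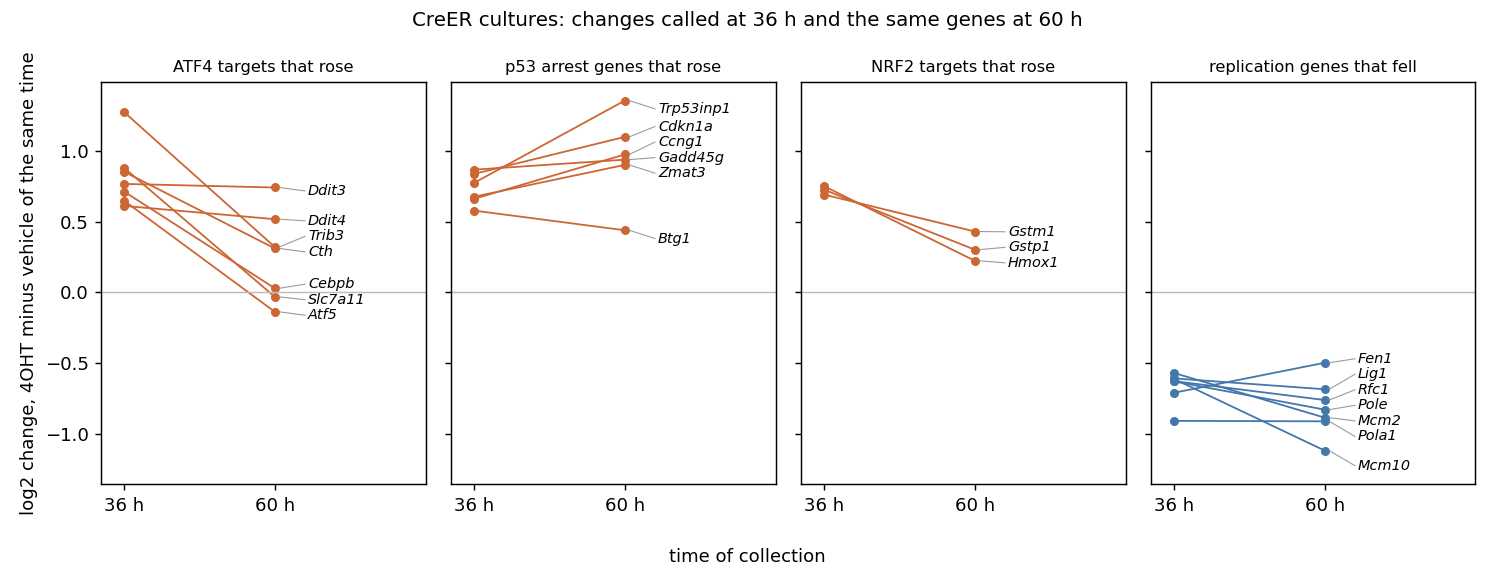
Log2 change (vertical axis, log2(signal + 16), 4OHT minus vehicle of the same time, 2 arrays each) in CreER cultures at 36 h and 60 h of the genes called at 36 h in the ATF4, p53 arrest, NRF2 and replication lists. Being called at 36 h, the genes lie away from 0 there by choice; at 60 h the ATF4 genes range from −0.14 (Atf5) to 0.74 (Ddit3), and the p53 arrest genes from 0.44 (Btg1) to 1.36 (Trp53inp1).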

How the data were processed

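Per the labels, RNA was taken up in TRIzol and given a biotin label. The deposited table holds 1 linear intensity per probe set and array, made by the authors with MAS5, per the submitters' processing notes; its version and scaling target are not given in the sources used here. Intensities were used as deposited, with no rescaling, so differences in array brightness count as spread. Of 22690 probe sets, 64 controls were left out; 20380 carried 1 gene symbol, 691 several and 1555 none. Symbols came from the platform annotation. A gene was represented by its brightest probe set, by mean log2(signal + 16) (12393 genes), and the 7619 genes whose mean reached the 40th percentile (6.07, a signal of 51.1) were tested.

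All 16 arrays entered 1 fit of 8 group means in limma 3.58.1 (R 4.3.3), with 8 residual degrees of freedom, empirical Bayes with a variance trend, two-sided p-values, and a threshold of 0.05 after Benjamini-Hochberg adjustment over all genes. The estimated prior degrees of freedom were infinite, so every gene was tested with the spread of genes of like brightness. The scripts were tested on simulated data. Named genes are the 12 largest rises and falls among genes called as deposited and after quantile normalization whose arrays did not overlap, plus up to 6 called members of each of 33 lists and, where none was called, up to 3 with the smallest p; others named were chosen after their values were seen. The members and lists were chosen with earlier results of these data known, and lists share genes. Alternatives were the scaling, pseudocount, filter, probe set rule, variance model, a replicate block and leaving out arrays; leaving out arrays after quantile normalization was added after seeing the data. Precision is limited by the number of arrays.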

Additional observations from a re-analysis of the deposited data

Results flagged for a closer look

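Differences between genotypes in the 36 h response, tested in the same limma fit, are given in log2 units as CreER minus no Cre for the named genes past an adjusted p of 0.05. They were 1.84 for Klf2, 1.83 for Cox8b, 1.74 for Prkch, 1.51 for Anxa1, 1.48 for Gsn, 1.48 for Hs1bp3, 1.47 for Pygm and 1.44 for Bbc3. They were 1.40 for Ptp4a3, 1.39 for Kcnd3, 1.34 for Dcxr, 1.29 for Slc7a11, 1.28 for Spry4, 1.27 for Abcb8, 1.25 for Trib3, 1.23 for Mapt and 1.23 for Cryab. They were 1.13 for Gadd45g, 1.12 for S100b, 1.06 for Phlda3, 1.01 for Fcgrt, 0.99 for Cdkn1a, 0.90 for Malat1 and 0.88 for Gstp1. Pola1 (−0.97) and Myef2 (−0.97) differed downward. Of these 26, 25 also passed after quantile normalization; Malat1 did not (limma adjusted p = 0.0605). Cox8b, a cytochrome oxidase subunit, was dim with CreER, from 44.3 and 22.7 to 56.2 and 87.6, and went without Cre from 137.1 and 154.3 to 65.6 and 64.9, so both changes enter its difference. For Malat1 the change was 0.04 with CreER and −0.86 without Cre. Among the others, Prkch (−0.62) and Hs1bp3 (−0.58) were well below the median of all genes without Cre, −0.15. Trib3 (0.02) and Fcgrt (0.03) were above it.

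Differences in the CreER response between times, 60 h minus 36 h, passed for 13 named genes. They were 1.83 for Triap1, 1.58 for Arid5a, 1.47 for Fam126b, 1.46 for Cryab, 1.40 for Cox8b and 1.18 for Uroc1, and −1.28 for Spry4, −1.31 for Dlg4, −1.32 for Kcnd3, −1.33 for Abcb8, −1.36 for Acaca, −1.39 for Gm6211 and −1.55 for Lrrc1. After quantile normalization 8 of the 13 passed; Uroc1, Abcb8, Acaca, Gm6211 and Lrrc1 did not. Triap1 read 353.7 and 419 with vehicle and 171 and 364.3 with 4OHT at 36 h, where 1 array of the 4 was low, and 173.7 and 105.2 against 315.2 and 373.3 at 60 h. Arid5a differed mainly in its 60 h vehicle arrays, 10.9 and 13 against 58.9 and 72.3 with 4OHT.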

How the results depend on the processing

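Counts are given for 4 comparisons in the order CreER at 36 h, no Cre at 36 h, CreER minus no Cre, and 60 h minus 36 h, with 199, 3, 71 and 15 calls as reported. Quantile normalization gave 1632, 0, 1107 and 167, and median scaling 1464, 0, 955 and 160; without Cre 494 and 394 genes had an unadjusted p under 0.05. With no filter 14, 0, 0 and 0 genes passed over 12393 genes, with 1196, 518, 948 and 612 at an unadjusted p under 0.05; the cause was not tested. Averaging all probe sets of a gene gave 42 calls for 60 h minus 36 h, a constant prior variance 9 without Cre and 26 for 60 h minus 36 h, and a pseudocount of 1 gave 1 without Cre. With the spread taken only from the arrays compared, 348, 42, 392 and 8 passed. Leaving out 1 array gave 31 to 78, 1 to 8, 11 to 93 and 6 to 29, and, for CreER at 36 h after quantile normalization, 752 to 1173 (752 and 1173 without vehicle replicate 1 or 2, 1004 and 865 without 4OHT replicate 1 or 2), of which 169 to 182 were among the 199. With the replicate number as a block, 24, 0, 9 and 3 genes passed by limma, with 135 at an unadjusted p under 0.05 without Cre. The numbers were not shown to pair the samples: deviations of same-numbered vehicle and 4OHT arrays correlated at 0.124 and −0.0856 with CreER at 36 h and 60 h, and at 0.311 and −0.0779 without Cre. The 24 named genes kept their direction in every alternative. Of them 18 lost their call with no filter, 8 under the block, 8 to 11 with 1 array left out as deposited and 0 under median scaling. Under quantile normalization 0 lost it, which the choice of genes required. That choice also fixed their direction with 1 array left out as deposited. With 2 arrays a group, the spread rests on all 8 groups, and calls as deposited carry differences in array brightness.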

Other observations

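Genes named in this paragraph belong to no fixed list and were chosen after their values were seen. Of the Polycomb repressive complex, Ezh2 read 1667 and 1774 with vehicle and 1060 and 975.6 with 4OHT (−0.75, limma adjusted p = 0.0043), and Suz12, its partner, read 580.1 and 715.4 against 372.2 and 379.7 (−0.75, limma adjusted p = 0.00773). The cohesin subunit Smc3 (−0.72), the repair-linked Smc6 (−0.73), the chromatin remodeller Hells (−0.69) and the histone chaperone Nasp (−0.63) fell too. Transcripts of the linker histone H1f2 rose from 1073 and 1146 to 2094 and 2109 (0.91, limma adjusted p = 9.68e-05), and those of the core histone H2ac19 from 172.8 and 177.1 to 305.6 and 396.1 (0.93, limma adjusted p = 3.68e-04). Histone genes come in families of near-identical copies, so probe sets may not separate them. Antiproliferative Tob1 (0.77) and Mxd4 (0.77), which competes with Myc for Max, rose.

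Of 23 tested lysosomal genes 0 passed as deposited, with a median of 0.24 and 22 above 0, and 13 rose after quantile normalization and 0 fell. Ctsl (0.39), Psap (0.34) and Ctsd (0.35) are examples. Of 13 interferon and antigen presentation genes 0 passed as deposited, with a median of 0.34. After quantile normalization 4 rose, Ifitm3, Ifitm2, Psmb10 and H2-D1, and 0 fell. For all genes the shares there were 9.7% and 11.7%.

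Values without Cre at 60 h, outside the comparisons above, are given here for genes named for their CreER response. Klf2 without Cre read 162.7 and 214.6 with vehicle and 358.5 and 304.3 with 4OHT at 60 h. Trib3 read 73.4 and 64.3 against 206.5 and 166, and Cox8b, which fell without Cre at 36 h, read 123.8 and 142.2 against 277.6 and 203.6. In each, both 4OHT arrays lay above both vehicle arrays. The same was so at 60 h without Cre for Dcxr (350 and 393.8 against 513.7 and 428.1) and Bbc3 (85.3 and 109.4 against 169.3 and 133.2). It was also so for Mapt, Prkch and Fcgrt. For Anxa1, Il17d, Ptp4a3, Gsn and Pygm, the rest of the 12 largest rises, the arrays overlapped. These differences were not tested, and the share of all genes with 4OHT arrays above vehicle arrays there was not counted. Whether such rises were common without Cre at 60 h is therefore not known.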
